A study of Arabidopsis thaliana with 8 samples.

Results

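The genes described here encode the machinery through which a plant cell reads auxin: 29 Aux/IAA genes, 15 ARF genes and the 5 receptor genes TIR1, AFB1, AFB2, AFB3 and AFB5. They were taken by locus from a fixed family list, with no cut on a measured value other than a count minimum. Earlier results of these data were known when this list and the other gene lists below were chosen. A locus was kept if it held at least 10 counts over the 8 libraries. Of the 49 loci listed, 48 were kept, out of 36799 genes in the count tables. IAA15, with 1 count in 1 library, was dropped. IAA33 was kept with 27 counts but was too low for the test, so 47 genes were tested.

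The RNA came from whole etiolated (dark-grown) Arabidopsis thaliana seedlings of 2 double mutants affected in PDC, the pyruvate dehydrogenase complex, which makes acetyl-CoA from pyruvate. The line called e1e2 here has the genotype e1-2-2 e2-2 #17 and the line called e2e3 has the genotype e2-2 e3-2-2 #67, so that both carry e2-2 and every group is a mutant. Seedlings kept for 3 days in the dark then received either hydrocarbon-free air or ethylene gas at 10 ppm, with 2 libraries in each of the 4 groups of line and treatment. Going by its title, the study is about PDC inside the nucleus and the EIN2 arm of ethylene signalling. Each line is 1 numbered isolate, the hours of ethylene and the loci behind the alleles are not given in the labels, and neither wild-type libraries nor the mutated genes were analysed here. Whether replicate libraries were planted separately is not stated, so the p-values below measure only the spread between these libraries, which may be technical.

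Auxin works by joining a TIR1/AFB receptor, an F-box protein of an SCF ubiquitin ligase, to an Aux/IAA protein, which is then ubiquitinated and destroyed. Aux/IAA proteins otherwise sit on ARF transcription factors at auxin response elements and hold their targets shut through the corepressor TOPLESS. Many Aux/IAA genes are themselves switched on by auxin, which closes a feedback loop, and in dark-grown seedlings auxin and ethylene together shape the apical hook and the growth of hypocotyl and root.

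The deposited gene counts summed to between 11522823 and 18601837 per library. Levels are given as CPM, counts brought to a common library size with TMM scaling, with both libraries of a group in the order of their replicate numbers. Differences are log2 changes ± standard error from 1 edgeR quasi-likelihood fit of all 8 libraries, and a change was called where the Benjamini-Hochberg adjusted p-value, taken over all 20193 tested genes, was under 0.05. Where levels of different genes are compared, they are given per length of the exons, as RPKM.

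Ethylene changed 28 of the 47 tested auxin signalling genes in e1e2, against 39.2% of all genes tested, and 27 of 47 in e2e3, against 44%. The steepest falls were those of the Aux/IAA genes IAA6 and IAA19. In e1e2, 12 genes rose and 16 fell, where 18.3% of all genes rose and 20.9% fell. In e2e3, 9 rose and 18 fell, against 20.3% and 23.6% of all genes. The median log2 change over the 47 genes was −0.05 in e1e2 and −0.08 in e2e3, where the median over all genes tested was 0.01 in both. These are levels in whole seedlings, in which fewer cells of a type and less RNA per cell cannot be told apart. Called changes of at least 2-fold in e1e2 were the rise of IAA31, against 2.09% of all genes, and the falls of IAA6 and IAA19, against 4.45%. In e2e3 they were the rise of IAA30, against 1.99% of all genes, and the falls of IAA5, IAA6 and IAA19, against 4.78%.

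The same 7 genes rose in both lines (IAA1, IAA4, IAA11, IAA18, IAA20, IAA28 and ARF1) and the same 15 fell in both (IAA3, IAA6, IAA7, IAA8, IAA14, IAA16, IAA17, IAA19, IAA29, ARF10, ARF11, ARF16, TIR1, AFB1 and AFB2). No gene was called in opposite directions. The share of all genes called in the same direction in both lines was not counted. Counts of genes called in both lines, here and below, therefore have no background beside them. Another 6 passed the test in e1e2 but not in e2e3, 5 in e2e3 but not in e1e2, and 14 in neither. A gene that passed in 1 line is not thereby shown to differ between the lines, and the test of that difference is given further on.

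**Figure D1:**
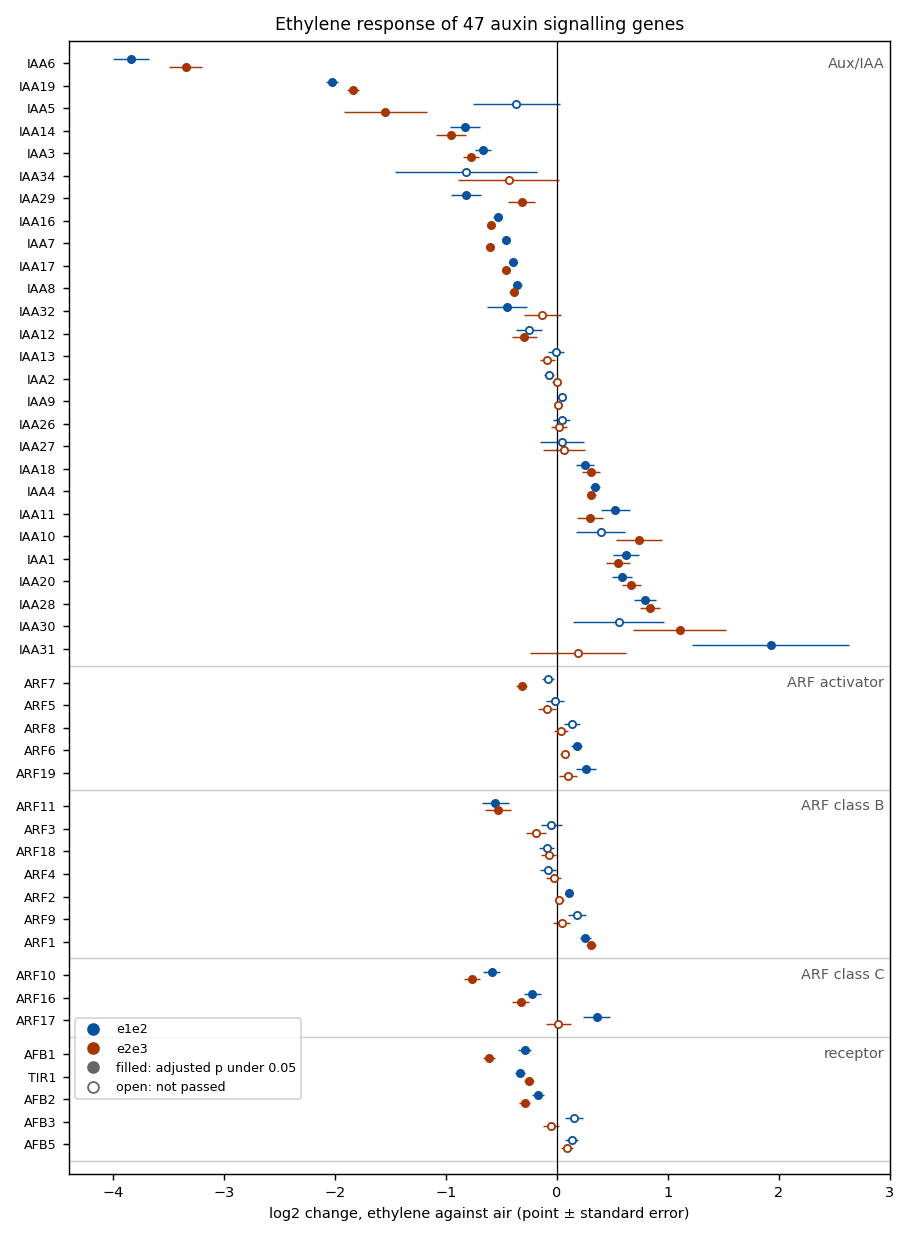
Log2 change in ethylene against air (x axis, log2 units) of the 47 tested genes, in e1e2 (blue) and e2e3 (brown), as points with bars of 1 standard error, grouped by role; filled points passed an adjusted p under 0.05. IAA6 and IAA19 lie far to the left in both lines, and the ARF and receptor genes lie within 1 unit of 0.

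Of the 5 receptor genes, 3 had less RNA in ethylene in both lines and 2 showed no called change. Of all genes, 20.9% fell in e1e2 and 23.6% in e2e3. TIR1 (AT3G62980), the founding auxin receptor, gave 171 and 168 CPM in e1e2 in air and 134 and 136 CPM in ethylene. In e2e3 it gave 158 and 175 CPM in air and 139 and 141 CPM in ethylene. Both ethylene libraries lay below both air libraries in each line, with log2 changes of −0.33 ± 0.04 in e1e2 (edgeR adjusted p = 2.88e-11) and −0.25 ± 0.04 in e2e3 (edgeR adjusted p = 1.69e-07). The e2e3 value was −0.16 when replicate 2 in air was left out.

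AFB1 (AT4G03190), the family member best known for rapid root responses to auxin, gave 82.8 and 71.6 CPM in e1e2 in air and 63.3 and 62.4 CPM in ethylene. The e2e3 libraries gave 90.4 and 90.4 CPM in air and 60.0 and 58.1 CPM in ethylene. The fall was −0.29 ± 0.06 on the log2 scale in e1e2 (edgeR adjusted p = 1.02e-05) and −0.61 ± 0.06 in e2e3 (edgeR adjusted p = 5.43e-21). The groups did not overlap within either line, but the 2 air libraries of e1e2 stood apart from each other, and without the higher of them, replicate 1, the e1e2 change was −0.19. Other genes cover 20.4% of the exonic bases of AFB1, and unstranded counting leaves out reads over more than 1 gene.

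AFB2 (AT3G26810), a close relative of TIR1, gave 91.5 and 94.6 CPM in e1e2 in air and 81.1 and 84.1 CPM in ethylene. In e2e3 the values were 100.5 and 101 CPM in air and 84.8 and 79.4 CPM in ethylene. Its changes of −0.17 ± 0.05 (edgeR adjusted p = 0.00532) and −0.29 ± 0.05 (edgeR adjusted p = 2.56e-07) were the smallest of the 3. The e1e2 call was lost with DESeq2 (adjusted p = 0.0603), with scaling by library size alone, where the change was −0.11, and without replicate 2 in air (−0.15) or replicate 1 in ethylene (−0.15).

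AFB3 (AT1G12820) gave 38.9 and 35.1 CPM in e1e2 in air and 42.2 and 39.8 CPM in ethylene, and 34.9 and 41.3 CPM in e2e3 in air against 33.2 and 40.6 CPM in ethylene, counted outside the 31.4% of its exonic bases that other genes cover. The e2e3 groups overlapped, and the 95% intervals of the log2 change ran from −0.00 to 0.31 in e1e2 and from −0.20 to 0.10 in e2e3. AFB5 (AT5G49980), of the branch of receptors that also binds the herbicide picloram, gave 65.9 and 67.4 CPM in e1e2 in air and 72.0 and 74.3 CPM in ethylene, and 70.3 and 67.8 CPM in e2e3 in air against 74.8 and 72.0 CPM in ethylene. Its ethylene libraries were the higher ones in each line, with intervals from 0.02 to 0.25 and from −0.02 to 0.20. With scaling by library size alone, AFB5 passed as higher in both lines (0.20 and 0.17) and AFB3 in e1e2 (0.22), so the lack of a call for them depends on the scaling. Its sister AFB4, counted with the ligase below, fell in e1e2 (−0.38 ± 0.11, edgeR adjusted p = 0.00278) and had −0.20 ± 0.11 in e2e3 (edgeR adjusted p = 0.124).

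The Aux/IAA genes, which encode the short-lived repressors, moved in both directions. In e1e2, 7 of 27 tested rose and 10 fell, where 18.3% and 20.9% of all genes did, and the counts in e2e3 were 8 and 11, against 20.3% and 23.6%. Among them, 6 rose in both lines and 9 fell in both. IAA6 (AT1G52830), also known as SHY1, showed the steepest fall. It gave 25.4 and 30.3 CPM in e1e2 in air and 2.02 and 1.86 CPM in ethylene. For e2e3 they were 27.4 and 28.0 CPM in air and 2.37 and 3.06 CPM in ethylene. All 4 ethylene libraries lay far below all 4 air libraries.

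IAA19 (AT3G15540), known as MSG2 and needed for bending growth of the hypocotyl, gave 161 and 158 CPM in e1e2 in air and 38.2 and 40.0 CPM in ethylene. In e2e3 it gave 166 and 170.2 CPM in air and 44.3 and 49.6 CPM in ethylene. The log2 change was −3.84 ± 0.16 and −3.35 ± 0.15 for IAA6 and −2.03 ± 0.06 and −1.84 ± 0.05 for IAA19, in e1e2 and e2e3. All 4 changes kept their calls under every alternative, DESeq2 and each left-out library included.

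The promoters of IAA6 and IAA19 are shown because these 2 genes moved most and together. They cover the 250 bases before the start of each gene model in the RefSeq TAIR10.1 genome, with the canonical auxin response element TGTCTC in capitals; IAA6 lies on the minus strand (chr1:19673653-19673902) and IAA19 on the plus strand (chr3:5263751-5264000).
IAA6 promoter: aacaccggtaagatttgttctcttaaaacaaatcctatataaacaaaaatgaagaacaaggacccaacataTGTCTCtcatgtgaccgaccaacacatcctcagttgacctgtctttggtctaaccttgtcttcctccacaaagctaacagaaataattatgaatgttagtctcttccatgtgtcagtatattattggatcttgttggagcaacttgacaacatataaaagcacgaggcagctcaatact
IAA19 promoter: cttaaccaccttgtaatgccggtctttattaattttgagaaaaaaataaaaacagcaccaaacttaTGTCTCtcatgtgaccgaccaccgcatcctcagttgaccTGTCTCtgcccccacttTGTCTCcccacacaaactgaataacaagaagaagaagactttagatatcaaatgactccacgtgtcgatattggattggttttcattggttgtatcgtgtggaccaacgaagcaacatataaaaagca

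IAA6 held the element once, 179 bases before the start, and IAA19 held it 3 times, 184, 145 and 128 bases before the start. Of the 1176 pairs of promoters among the 49 listed genes, this pair shared the longest identical run on the gene strand, and the pair next to it in length was IAA20 and IAA30. Each of the 2 runs is shown here because it holds the element, in capitals. Searched on the gene strand alone, each occurred in no other of 27443 promoters of protein-coding genes.
Shared by IAA6 and IAA19: taTGTCTCtcatgtgaccgacca
Shared by IAA20 and IAA30: cTGTCTCatcattccacc

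The first run has 23 bases and begins 181 bases before IAA6 and 186 before IAA19; the second has 18 bases and begins 70 bases before IAA20 and 57 before IAA30. The median longest run over all pairs was 9 bases. IAA20 and IAA30 encode Aux/IAA proteins without the degron that the receptors bind. IAA20 rose in both lines (0.59 ± 0.09 and 0.67 ± 0.08), and IAA30, at 0.575 to 1.68 CPM, had 0.56 ± 0.41 in e1e2 (edgeR adjusted p = 0.293) and rose by 1.11 ± 0.42 in e2e3 (edgeR adjusted p = 0.0234). The IAA30 call was lost with DESeq2 (adjusted p = 0.137) and in 3 of the 8 leave-one-out fits, without replicate 1 in air (0.90) or either ethylene replicate of e2e3 (up to 1.20). Both pairs carried the element, and its part in these changes was not tested.

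Over the whole set, TGTCTC on either strand was found in the 250 bases before 11 of the 49 genes, or 22.4%, against 3003 of 27443 protein-coding genes, or 10.9%. It was found before 3 of the 15 genes that fell in both lines, 2 of the 7 that rose in both and 6 of the 25 other tested genes. TGTCGG, a stronger binding site for ARF proteins in vitro that shares its first 4 bases with TGTCTC, was found before 8 of the 49, or 16.3%, against 4.18% of protein-coding genes. It was found before 1 of the 15 genes that fell in both lines, 1 of the 7 that rose in both and 6 of the 25 other tested genes. The windows of IAA32 and IAA34, which both hold TGTCTC, overlap 1 other gene each. A match is a description of these letters in this window and not of binding.

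**Figure D2:**
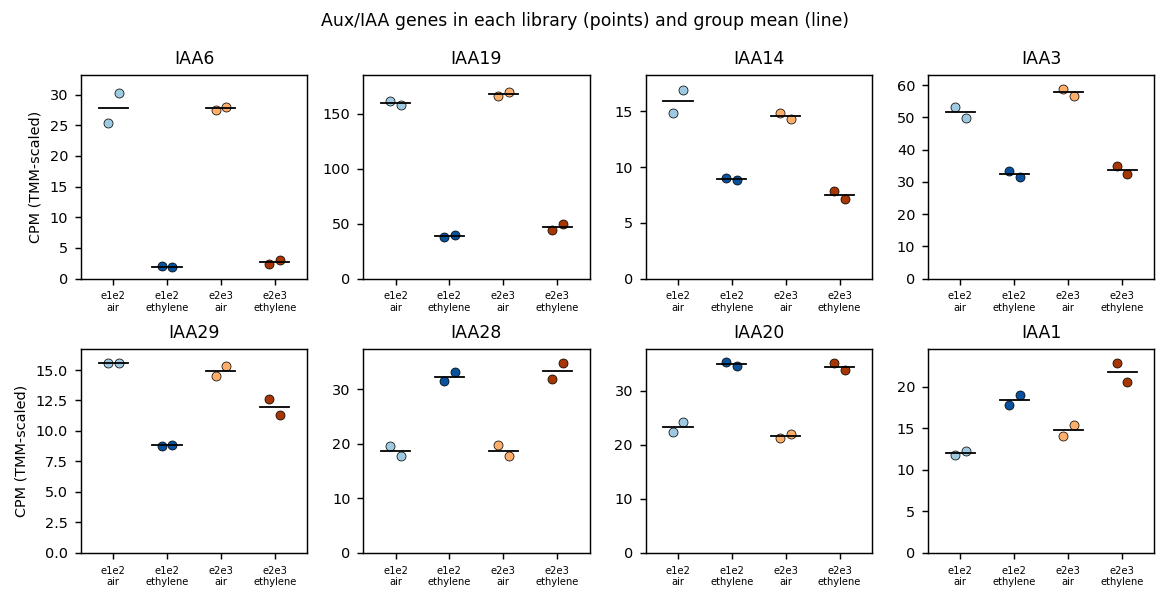
CPM (TMM-scaled, y axis from 0) of 8 Aux/IAA genes in each library (points), with the mean of the 2 libraries of a group as a line. IAA6, IAA19, IAA14, IAA3 and IAA29 are lower in ethylene than in air in both lines, and IAA28, IAA20 and IAA1 are higher, with no overlap of air and ethylene libraries within a line.

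Of the 5 Aux/IAA genes with the most RNA per length in air, IAA19 fell as above, IAA9 had no call, and IAA7, IAA17 and IAA16 fell by less than 2-fold. IAA7, known as AXR2, gave 504 and 516 CPM in e1e2 in air and 369 and 371 CPM in ethylene, and 583 and 588 CPM in e2e3 in air against 384 and 388 CPM in ethylene. IAA17, known as AXR3, gave 295 and 287 CPM in e1e2 in air and 228 and 214 CPM in ethylene, and 362 and 355 CPM in e2e3 in air against 258 and 263 CPM in ethylene. IAA16 gave 343 and 341 CPM in e1e2 in air and 244 and 227 CPM in ethylene, and 401 and 402 CPM in e2e3 in air against 256 and 274 CPM in ethylene. These 3 genes, whose gain-of-function mutants resist auxin, were lower in both ethylene libraries of each line. Their log2 changes lay between −0.40 and −0.54 in e1e2 and between −0.46 and −0.60 in e2e3, all called under every alternative.

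IAA8 gave 199 and 200.1 CPM in e1e2 in air and 154 and 157 CPM in ethylene, and 215 and 227 CPM in e2e3 in air against 173 and 166 CPM in ethylene. Its fall was −0.36 ± 0.04 and −0.39 ± 0.04 on the log2 scale. Its relative IAA9, a repressor of leaf and fruit development in tomato, stayed at 340.1 to 366 CPM over the 8 libraries. The 95% interval of its log2 change ran from −0.03 to 0.12 in e1e2 and from −0.06 to 0.08 in e2e3, although scaling by library size alone called it higher in both (0.11 and 0.09).

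Among the genes with less RNA, IAA3 (SHY2, which restrains auxin response in the root meristem) had a mean of 51.6 ± 2.28 CPM in air and 32.4 ± 1.47 in ethylene in e1e2, and 57.8 ± 1.61 and 33.7 ± 1.61 CPM in e2e3 (mean ± SD, n = 2). IAA14 (SOLITARY-ROOT, which blocks lateral root initiation when stabilised) had 15.9 ± 1.48 CPM in air and 8.94 ± 0.114 in ethylene in e1e2, and 14.6 ± 0.404 and 7.50 ± 0.463 CPM in e2e3. Their log2 changes were −0.67 ± 0.07 and −0.77 ± 0.07 for IAA3 and −0.83 ± 0.13 and −0.96 ± 0.14 for IAA14. Reads over 39.6% of the exonic bases of IAA3 fall on another gene as well and were not counted.

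IAA29, an Aux/IAA gene induced by shade through PIF factors, gave 15.5 and 15.6 CPM in e1e2 in air and 8.76 and 8.86 CPM in ethylene. The e2e3 libraries gave 14.5 and 15.3 CPM in air and 12.6 and 11.3 CPM in ethylene. The groups did not overlap in either line, and the ethylene libraries of e2e3 lay between the air and ethylene libraries of e1e2. The change was −0.82 ± 0.13 in e1e2 (edgeR adjusted p = 3.49e-08) and −0.32 ± 0.12 in e2e3 (edgeR adjusted p = 0.0258). The e2e3 call was lost with DESeq2 (adjusted p = 0.187), with library size alone (−0.23) and without replicate 1 in air (−0.34), replicate 2 in air (−0.26) or replicate 2 in ethylene (−0.24). IAA5, with 9 to 44 counts per library, had −0.37 ± 0.39 in e1e2 (edgeR adjusted p = 0.491) and fell with a log2 change of −1.55 ± 0.38 in e2e3 (edgeR adjusted p = 0.000225).

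Of the genes that rose in both lines, IAA28, which represses lateral root formation, had 18.7 ± 1.21 CPM in air and 32.3 ± 1.08 in ethylene in e1e2, and 18.7 ± 1.42 and 33.3 ± 2.08 CPM in e2e3 (mean ± SD, n = 2). IAA20 had 23.2 ± 1.36 and 34.9 ± 0.420 CPM in e1e2, and 21.6 ± 0.579 and 34.4 ± 0.976 CPM in e2e3. IAA1, an early auxin-induced gene, had 12.0 ± 0.327 and 18.4 ± 0.838 CPM in e1e2, and 14.8 ± 0.951 and 21.7 ± 1.58 CPM in e2e3. In each of these 3 the ethylene libraries exceeded the air libraries of the same line, with log2 changes between 0.55 and 0.84 over both lines. IAA4, at 132 to 170.2 CPM, rose by 0.34 ± 0.04 and 0.31 ± 0.04, IAA11 by 0.53 ± 0.13 and 0.30 ± 0.12, and IAA18 by 0.25 ± 0.08 and 0.31 ± 0.08.

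IAA13, IAA26, IAA27 and IAA34 had no call in either line, with log2 changes of −0.01 and −0.09, 0.04 and 0.02, 0.04 and 0.06, and −0.82 and −0.43. IAA33, too low for the test, held 9 and 3 counts in e1e2 in air, 4 and 3 in e1e2 in ethylene, 0 and 3 in e2e3 in air and 2 and 3 in e2e3 in ethylene.

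The IAA11 call in e2e3 was lost with DESeq2 (adjusted p = 0.192) and without replicate 2 in air (0.25) or replicate 2 in ethylene (0.24), and that of IAA18 in e1e2 with DESeq2 (adjusted p = 0.0991) and without replicate 1 in air (0.19) or replicate 1 in ethylene (0.20). IAA10 had 0.39 ± 0.22 in e1e2 and rose by 0.74 ± 0.21 in e2e3 (edgeR adjusted p = 0.00145), at 3.15 to 5.85 CPM. IAA12, known as BODENLOS and the partner of ARF5 in the embryo, had −0.25 ± 0.11 in e1e2 and fell with a log2 change of −0.29 ± 0.11 in e2e3, where it lost its call with DESeq2 (adjusted p = 0.167), with library size alone (−0.21) and without replicate 1 in air (−0.19), replicate 1 in ethylene (−0.33) or replicate 2 in ethylene (−0.25). IAA32 fell with a log2 change of −0.45 ± 0.18 in e1e2 and had −0.13 ± 0.17 in e2e3; the e1e2 call was lost with DESeq2 (adjusted p = 0.191), with library size alone (−0.39) and without replicate 1 in air (−0.47), replicate 2 in air (−0.44) or replicate 2 in ethylene (−0.35). Other genes cover 44.2% of the exonic bases of IAA32 and 27.6% of those of IAA10, where reads over both were not counted.

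Neighbouring Aux/IAA genes did not always move together. There are 3 pairs with 1 other gene between them, each pair pointing outwards. On chromosome 4, IAA14 (chr4:8347822-8350263, minus strand) fell in both lines, while IAA1 (chr4:8360996-8362033, plus strand), 10732 bases away, rose in both. On chromosome 3, IAA7 (chr3:8194606-8197161, plus strand) fell in both, while IAA2 (chr3:8180646-8182095, minus strand), 12510 bases away, had log2 changes of −0.07 ± 0.04 and −0.00 ± 0.04 with no call, although e1e2 passed without replicate 1 in air (−0.13). On chromosome 1, IAA3 (chr1:1128149-1129689, minus strand) and IAA17 (chr1:1136078-1138663, plus strand), 6388 bases apart, both fell.

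Summed per length, the Aux/IAA family held less RNA in ethylene. The 28 kept genes added up to 1528.8 ± 7.46 RPKM in e1e2 in air and 1214.8 ± 18.3 in ethylene, and to 1693.6 ± 3.29 RPKM in e2e3 in air and 1308.2 ± 7.48 in ethylene (mean ± SD, n = 2). The ethylene sum was 79.5% of the air sum in e1e2 and 77.2% in e2e3, with no overlap of libraries and no test run on these sums. In air the order per length was IAA7 (267 ± 4.17 RPKM in e1e2), IAA17 (221 ± 4.06), IAA16 (169 ± 0.531), IAA9 (159 ± 0.289) and IAA19 (158 ± 2.33), and the last 2 did not differ beyond their spread. In e1e2 in ethylene IAA19 had 38.7 ± 1.26 RPKM and had left the first 5 genes, which then were IAA7 (194 ± 0.848), IAA17 (168 ± 7.23), IAA9 (164 ± 2.26), IAA4 (124 ± 2.25) and IAA2 (121 ± 3.81). The first 5 genes held between 63.4% and 65.7% of the sum in every library.

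**Figure D3:**
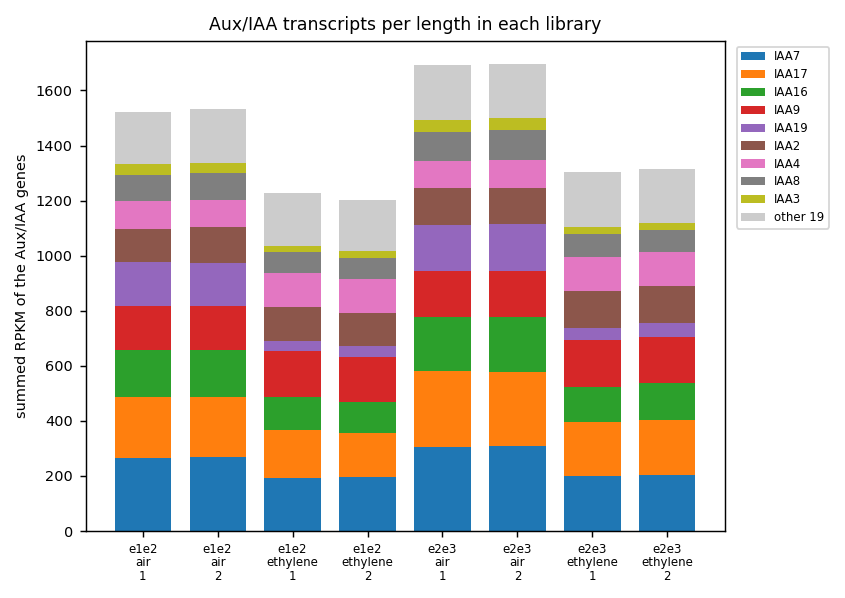
Summed RPKM of the 28 kept Aux/IAA genes (y axis from 0) in each of the 8 libraries, as bars stacked by gene; the 9 genes with the most RNA have their own colours. The 4 ethylene bars reach 1201.9 to 1313.5 RPKM, below the 4 air bars at 1523.5 to 1695.9, and the IAA19 segment shrinks most among the coloured ones.

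The ARF genes encode the DNA-binding factors. Of 15 tested in e1e2, 5 rose and 3 fell, where 18.3% and 20.9% of all genes did, and the counts in e2e3 were 1 and 4, against 20.3% and 23.6%, none of them 2-fold. Their summed level stayed between 301.6 and 316.3 RPKM in every library. ARF2, a repressor that acts below HOOKLESS1 in the apical hook, had the highest level per length of the ARF genes in every group (89.6 ± 2.60 RPKM in e1e2 in air and 92.5 ± 2.29 in e2e3 in air), followed by ARF1 (36.3 ± 0.148 and 34.8 ± 0.0521) and ARF6 (33.0 ± 0.0174 and 33.3 ± 0.676).

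Among the activators, ARF7 (AT5G20730, chr5:7016445-7022179, minus strand), which drives hypocotyl bending and lateral root formation, gave 97.0 and 97.0 CPM in e1e2 in air and 92.3 and 91.2 CPM in ethylene. In e2e3 the values were 116 and 113 CPM in air and 96.7 and 87.1 CPM in ethylene. The air libraries of e2e3 stood above the other 6, which lay between 87.1 and 97.0 CPM. The change was −0.08 ± 0.05 in e1e2 (edgeR adjusted p = 0.236) and −0.32 ± 0.05 in e2e3 (edgeR adjusted p = 7.76e-09). ARF19, which overlaps ARF7 in function, rose in e1e2 (0.26 ± 0.09, edgeR adjusted p = 0.00965) and had 0.10 ± 0.08 in e2e3. Its e1e2 call was lost with DESeq2 (adjusted p = 0.1) and without replicate 2 in air (0.23) or replicate 2 in ethylene (0.17).

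ARF5, known as MONOPTEROS and needed for the embryonic root, showed no call, with intervals from −0.18 to 0.14 in e1e2 and from −0.24 to 0.07 in e2e3. ARF6 gave 134 and 134 CPM in e1e2 in air and 149 and 153 CPM in ethylene, and 133 and 137 CPM in e2e3 in air against 142 and 143 CPM in ethylene. ARF8, its close relative in hypocotyl and flower growth, gave 48.1 and 46.6 CPM in e1e2 in air and 51.4 and 52.6 CPM in ethylene, and 46.7 and 49.3 CPM in e2e3 in air against 49.4 and 49.2 CPM in ethylene. ARF6 rose in e1e2 by 0.18 ± 0.05 (edgeR adjusted p = 0.000655) and had 0.07 ± 0.04 in e2e3. ARF8 had 0.13 ± 0.07 and 0.04 ± 0.07 and passed in neither, although library size alone called it higher in e1e2 (0.20) and ARF6 higher in e2e3 (0.15).

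Of the class B factors, mostly repressors, ARF1 rose in both lines (0.26 ± 0.05 and 0.31 ± 0.05) and ARF11 fell in both (−0.56 ± 0.12 and −0.54 ± 0.12). The ARF11 change in e2e3 was −0.33 and missed the threshold without replicate 1 in air. ARF2 gave 354 and 339 CPM in e1e2 in air and 381 and 366 CPM in ethylene, and 352 and 364 CPM in e2e3 in air against 369.7 and 357 CPM in ethylene. Its rise of 0.11 ± 0.04 in e1e2 (edgeR adjusted p = 0.0135) was lost with DESeq2 (adjusted p = 0.0517) and without replicate 2 in air or replicate 1 in ethylene (0.08 in both), and was 0.17 with library size alone; in e2e3 the change was 0.02 ± 0.04. ARF9 had 0.18 ± 0.08 and 0.04 ± 0.08 and ARF18 −0.09 ± 0.07 and −0.08 ± 0.07, with no call except for ARF9 in e1e2 with library size alone (0.25).

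The class C factors ARF10, ARF16 and ARF17 are known targets of miR160. ARF10 gave 44.3 and 50.5 CPM in e1e2 in air and 31.3 and 31.8 CPM in ethylene, and 53.7 and 52.2 CPM in e2e3 in air against 32.4 and 29.9 CPM in ethylene. ARF16, which acts with ARF10 in the root cap, gave 40.5 and 36.6 CPM in e1e2 in air and 34.4 and 31.5 CPM in ethylene, and 37.5 and 38.0 CPM in e2e3 in air against 30.8 and 29.4 CPM in ethylene. Both were lower in ethylene without overlap in each line, ARF10 by −0.59 ± 0.08 and −0.76 ± 0.07 and ARF16 by −0.22 ± 0.08 and −0.33 ± 0.08. The ARF16 call in e1e2 was lost with DESeq2 (adjusted p = 0.139), with library size alone (−0.16) and without replicate 1 in air (−0.15) or replicate 2 in ethylene (−0.16).

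ARF17 did not fall. It gave 12.2 and 13.5 CPM in e1e2 in air, 16.8 and 16.2 CPM in e1e2 in ethylene, 15.9 and 16.4 CPM in e2e3 in air and 16.0 and 16.6 CPM in e2e3 in ethylene. Only the air libraries of e1e2 stood apart, below the rest. The change was 0.36 ± 0.12 in e1e2 (edgeR adjusted p = 0.011) and 0.01 ± 0.11 in e2e3. The e1e2 rise was lost with DESeq2 (adjusted p = 0.0963) and without replicate 1 in air (0.29) or replicate 1 in ethylene (0.33).

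Small RNAs known to cut some of these transcripts are shown with the sites that match them best. A site here is a match of letters, and cutting was not measured. AFB1 was not among the 3 receptor genes listed beforehand as known targets of miR393. Mature sequences are from the RefSeq TAIR10.1 annotation, 5′ to 3′, with the seed (bases 2 to 8) in capitals, and the 3 seeds differ.
miR160a-5p: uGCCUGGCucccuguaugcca
miR167a-5p: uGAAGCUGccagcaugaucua
miR393a-5p: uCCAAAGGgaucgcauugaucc

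The best matching sites in the coding sequence, read 5′ to 3′ on the gene strand as DNA, have the bases in capitals that do not form a Watson-Crick pair with the small RNA, a G paired with U counted as unpaired.
ARF17, miR160a-5p site: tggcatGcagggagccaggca
ARF10, miR160a-5p site: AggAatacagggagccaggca
ARF16, miR160a-5p site: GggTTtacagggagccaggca
ARF8, miR167a-5p site: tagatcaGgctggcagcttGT
ARF6, miR167a-5p site: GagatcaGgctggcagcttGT
AFB2, miR393a-5p site: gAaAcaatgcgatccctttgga
AFB3, miR393a-5p site: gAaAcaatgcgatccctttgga
TIR1, miR393a-5p site: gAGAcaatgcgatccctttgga
AFB1, miR393a-5p site: gAGAcCatgcgatccctttgga

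With at most 4 unpaired bases, such sites were found in 3 of 27444 protein-coding genes for miR160a-5p, all of them the class C ARF genes, in 7 for miR167a-5p and in 8 for miR393a-5p. The ARF17 site (chr1:29274189-29274209, plus strand) had 1 unpaired base, against 2 in ARF10 (chr2:12115741-12115761, plus strand) and 3 in ARF16 (chr4:14704141-14704161, minus strand). The sites of AFB2 (chr3:9870237-9870258, plus strand) and AFB3 (chr1:4369085-4369106, minus strand) were identical in sequence. The TIR1 site (chr3:23273727-23273748, minus strand) had 3 unpaired bases and the AFB1 site (chr4:1405341-1405362, minus strand) 4. The sites of ARF6 (chr1:10686478-10686498, minus strand) and ARF8 (chr5:14633841-14633861, plus strand) had 4 and 3. The precursors of these miRNAs were not analysed here.

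ARF2, ARF3 and ARF4 are the known targets of small RNAs cut from the TAS3 transcript, which was measured. TAS3 gave 11.8 and 12.7 CPM in e1e2 in air and 5.72 and 5.70 CPM in ethylene, and 13.8 and 16.7 CPM in e2e3 in air against 6.22 and 4.45 CPM in ethylene. It fell with a log2 change of −1.10 ± 0.16 in e1e2 (edgeR adjusted p = 3.94e-10) and −1.52 ± 0.15 in e2e3 (edgeR adjusted p = 3.80e-19). ARF3, a polarity factor known as ETTIN, gave 26.3 and 26.1 CPM in e1e2 in air and 24.5 and 26.0 CPM in ethylene, and 25.3 and 26.3 CPM in e2e3 in air against 20.8 and 24.6 CPM in ethylene. ARF4 gave 45.9 and 43.1 CPM in e1e2 in air and 42.4 and 41.6 CPM in ethylene, and 42.5 and 44.8 CPM in e2e3 in air against 44.0 and 41.6 CPM in ethylene. Neither passed the test, with log2 changes of −0.05 ± 0.09 and −0.19 ± 0.09 for ARF3 and −0.08 ± 0.07 and −0.03 ± 0.07 for ARF4. ARF3 was called in e2e3 only without replicate 2 in ethylene (−0.31). The ARF2 response did not pass the test of a difference between the lines (−0.09 ± 0.05, edgeR adjusted p = 0.485), and with library size alone ARF2 was called higher in both (0.17 and 0.10).

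**Figure D4:**
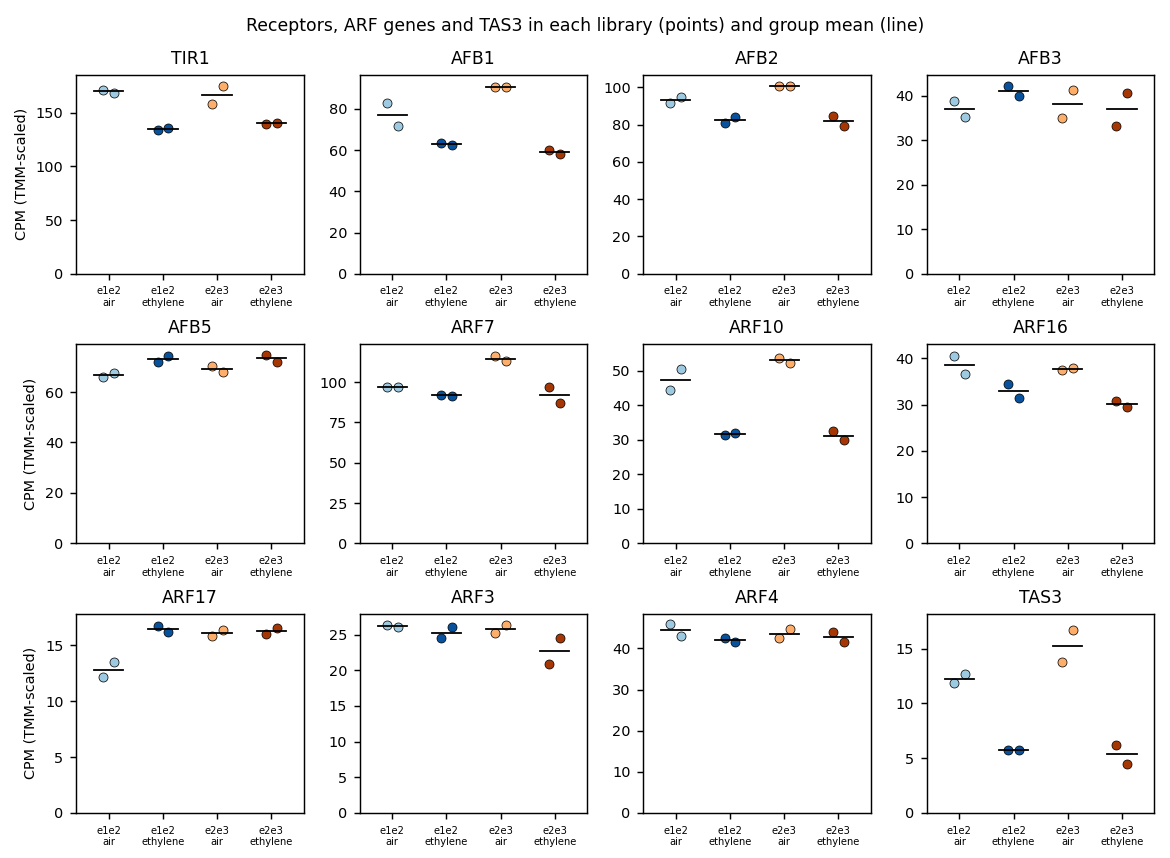
CPM (TMM-scaled, y axis from 0) of the 5 receptor genes, 6 ARF genes and TAS3 in each library (points), with the mean of the 2 libraries of a group as a line. TIR1, AFB1, AFB2, ARF10, ARF16 and TAS3 are lower in ethylene in both lines, ARF7 is high in e2e3 in air alone, and ARF17 is low in e1e2 in air alone.

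Of the other parts of the pathway, the TOPLESS family, the corepressors that Aux/IAA proteins recruit, had 2 of 5 members that rose and 1 that fell in each line. As shares these were 40% and 20%, against 18.3% and 20.9% of all genes in e1e2 and 20.3% and 23.6% in e2e3. TPR1 rose (0.36 ± 0.05 and 0.14 ± 0.05), TPR2 rose (0.19 ± 0.06 and 0.17 ± 0.06) and TPR4 fell (−0.30 ± 0.06 and −0.35 ± 0.06). The TPR2 calls were lost with DESeq2 in both lines (adjusted p = 0.256 and 0.257), as was the TPR1 call in e2e3 (adjusted p = 0.0703). The TPR1 response differed between the lines (−0.23 ± 0.07, edgeR adjusted p = 0.0379), though not with DESeq2 (adjusted p = 0.159), and the call held in 1 of the 8 leave-one-out fits. TPL itself, at 228 to 251 CPM, had 0.08 ± 0.04 and 0.02 ± 0.04, and TPR3 had 0.02 ± 0.10 and −0.01 ± 0.10. Of 11 genes of the SCF-TIR1 ligase and of the RUB pathway that activates it, 1 rose and 2 fell in e1e2. The counts in e2e3 were 0 and 1. As shares these were 9.1% and 18.2% in e1e2 and 0% and 9.1% in e2e3, all below the shares of all genes. RCE1, the RUB-conjugating enzyme, fell in both (−0.17 ± 0.05 and −0.18 ± 0.05), and the scaffold CUL1 stayed at 248 to 278 CPM.

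Of the 15 tested of 19 listed early auxin response genes outside the Aux/IAA family, e1e2 had 2 that rose and 10 that fell, against 18.3% and 20.9% of all genes. For e2e3 the counts were 2 and 11, against 20.3% and 23.6%, and the median log2 changes in the lines were −0.62 and −0.71. SAUR19 and SAUR24, growth genes of the hypocotyl, fell with log2 changes of −1.60 ± 0.16 and −1.36 ± 0.15 in e1e2 and −1.51 ± 0.14 and −1.52 ± 0.14 in e2e3. GH3.1, of the family that conjugates auxin to amino acids, fell with log2 changes of −1.67 ± 0.28 and −1.57 ± 0.27, and HB-2, a homeobox gene of shade growth, by −1.27 ± 0.08 and −1.11 ± 0.08. The risers were PBP1, a calcium-binding partner of the kinase PINOID (1.92 ± 0.18 and 1.56 ± 0.15), and GH3.2 (0.61 ± 0.07 and 0.68 ± 0.07).

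LBD29, a lateral root gene below ARF7 and ARF19 with 96 counts in all, fell with log2 changes of −1.33 ± 0.53 in e1e2 and −1.78 ± 0.52 in e2e3. Its e1e2 call was lost with DESeq2 (adjusted p = 0.183). SAUR genes are near-identical copies in part, and reads that fit several copies were not counted, so their levels are uncertain.

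The summed level of root markers was lower in ethylene, with 4 of 8 markers not called in each line. The 8 root markers summed to between 9751 and 10089 CPM in e1e2 in air and between 6392 and 6432 CPM in ethylene, and to between 11546 and 11667 CPM in e2e3 in air and between 7219 and 7228 CPM in ethylene. No marker was at 0 in any library. With ethylene, 1 of 8 rose and 3 fell in e1e2, against 18.3% and 20.9% of all genes. The counts in e2e3 were 0 and 4, against 20.3% and 23.6%. The median log2 changes of the root markers were −0.08 and −0.23. The sum is mostly PYK10, a beta-glucosidase of the root, at −0.65 and −0.70. CASP5 of the endodermis fell with log2 changes of −1.04 ± 0.05 and −1.06 ± 0.04, while the endodermal regulator SCR had 0.11 ± 0.06 and 0.11 ± 0.06 and the root hair regulator RHD6 0.08 ± 0.22 and 0.04 ± 0.20. The remaining markers are given as mean CPM in air and ethylene. In e1e2 these were 13.0 and 15.9 for COBL9, 1.93 and 0.646 for WOX5, 227 and 220 for CASP1 and 74.6 and 68.2 for PIN2. In e2e3 they were 18.3 and 17.6, 1.28 and 0.662, 290 and 264, and 71.6 and 57.0. WOX5 held 124 counts in all. The 5 shoot markers summed to between 5863 and 5900.5 CPM in e1e2 in air and between 6202 and 6230.0 CPM in ethylene, and to between 4871 and 5111 CPM in e2e3 in air and between 6082 and 6306 CPM in ethylene. Most of this sum is RBCS1A and PORA, with means of 4088 and 1516 CPM in e1e2 in air. The shoot markers were split by call. In e1e2, 2 rose and 2 fell, and in e2e3, 3 rose and 2 fell, against the same shares of all genes. They include the apical hook gene HLS1 and the growth factor gene PIF4. In e1e2 HLS1 had means of 40.0 CPM in air and 84.5 CPM in ethylene, and PIF4 had 56.4 and 19.6 CPM. The part of tissue makeup in the changes of the auxin genes was not tested.

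In air, 8 of the 47 genes were higher in e2e3 than in e1e2 and none was lower, against 9% and 5.83% of all genes tested. They were IAA7 (0.20 ± 0.03), IAA8 (0.15 ± 0.04), IAA16 (0.23 ± 0.04), IAA17 (0.30 ± 0.04), IAA31 (2.23 ± 0.67), ARF7 (0.24 ± 0.05), ARF17 (0.33 ± 0.12) and AFB1 (0.23 ± 0.06). Outside IAA31 these are small differences. The ARF17 call was lost with DESeq2 (adjusted p = 0.218) and in all 8 leave-one-out fits, that of AFB1 without replicate 2 of e1e2 in air (0.13) and that of IAA8 without replicate 2 of e2e3 in air (0.09). IAA31 rested on few counts: 4 and 1 in e1e2 in air, 12 and 12 in e1e2 in ethylene, 13 and 19 in e2e3 in air and 17 and 16 in e2e3 in ethylene. Its value in air was 1.49 and not called without replicate 2 of e1e2, which held 1 count, and 3.53 without replicate 1. For the same reason its rise with ethylene in e1e2 (1.93 ± 0.70, edgeR adjusted p = 0.0203) was 3.24 without replicate 1 in air, 1.19 and not called without replicate 2 in air, and not called with DESeq2 (adjusted p = 0.0996). In e2e3 its change was 0.19 ± 0.43.

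In ethylene, 5 were higher in e2e3 and none lower, against 4.24% and 2.32% of all genes: IAA2 (0.14 ± 0.04), IAA16 (0.17 ± 0.04), IAA17 (0.24 ± 0.04), IAA19 (0.26 ± 0.07) and IAA29 (0.44 ± 0.14). IAA2, whose levels changed little otherwise, gave 166 and 179.9 CPM in e1e2 in air, 168 and 161 in e1e2 in ethylene, 185 and 180.2 in e2e3 in air and 179.7 and 184 in e2e3 in ethylene. IAA16 and IAA17 were thus higher in e2e3 under both gases. With DESeq2, 6 of the 8 calls in air and 3 of the 5 in ethylene remained, while ARF17 in air and IAA2 in ethylene (adjusted p = 0.0908) were lost and IAA31 and IAA29 got no adjusted p. Of the calls in ethylene only that of IAA17 held in all 8 leave-one-out fits. The calls of IAA2 (0.13), IAA16 (0.12), IAA19 (0.18) and IAA29 (0.52) were lost without replicate 2 of e2e3 in ethylene. Of the 8 root markers, 4 were higher and none lower in e2e3 in air, against 9% and 5.83% of all genes. In ethylene 3 of them were higher and 1 lower, against 4.24% and 2.32%. Of the 5 shoot markers, none was higher and 3 were lower in e2e3 in air, and 1 was lower in ethylene, against the same shares. A higher ethylene response in e2e3 was called for 3 of them, against 1.54% of all genes. The part of either set in the differences between the lines was not tested.

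The ethylene responses themselves differed between the lines for 2 of the 47 genes, against 2.8% of all genes tested, and both responses were more negative in e2e3, as for 1.27% of all genes. For AFB1 the difference of the log2 changes, e2e3 minus e1e2, was −0.32 ± 0.08 (edgeR adjusted p = 0.00975), and for ARF7 it was −0.24 ± 0.07 (edgeR adjusted p = 0.0445). Both genes were called higher in e2e3 in air, as given above, and neither was called between the lines in ethylene (−0.09 ± 0.06 for AFB1 and 0.00 ± 0.05 for ARF7). The AFB1 value in ethylene is also part of its difference. The difference of responses shares its air libraries with the comparison of the lines in air. DESeq2 called neither (adjusted p = 0.101 and 0.178). Among the 8 leave-one-out fits AFB1 was called in 2, without replicate 1 of e1e2 in air or replicate 1 of e2e3 in ethylene, and ARF7 in 1, without replicate 1 of e2e3 in ethylene. The AFB1 difference was −0.22 without replicate 2 of e1e2 in air. For none of the 27 Aux/IAA genes did the difference pass. IAA29 had 0.50 ± 0.18 (edgeR adjusted p = 0.12), IAA6 0.49 ± 0.28 (edgeR adjusted p = 0.426), IAA5 −1.18 ± 0.55 (edgeR adjusted p = 0.293) and IAA31 −1.74 ± 0.84 (edgeR adjusted p = 0.322).

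In the authors' deposited tables, which tested each line on its own, e1e2 had 6 of these genes that rose and 13 that fell and e2e3 had 6 and 16. All of them were called in the same direction by the edgeR fit. The share of all genes called by the authors was not counted, so these counts have no background beside them. The authors' deposited table of wild-type changes, in which every gene changed at least 2-fold in wild type, lists 1242 genes, where the count tables hold 36799. It lists 3 of the 48 kept genes: IAA6 (−3.15), IAA19 (−1.22) and IAA28 (1.28) on the log2 scale. The authors' deposited table gives IAA6 −3.85 and −3.35, IAA19 −2.03 and −1.84 and IAA28 0.79 and 0.84 in e1e2 and e2e3, the same directions as in wild type.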

How the data were processed

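Counts came from 2 tables deposited by the authors, 1 for each line with 4 libraries each. Per the file headers they were made with featureCounts 2.0.1 on Araport11 genes, as paired-end fragments without strand, and by its default reads that map to several places or overlap several genes are left out. The submitters' processing notes list, without roles, DESeq2, STAR, Subread 2.0.1, Trim Galore and FastQC, with the TAIR10 build. The authors also deposited DESeq2 tables of log2 changes with p-values and a Wald score for each line, and log2 changes of genes that responded in wild type.

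Counts were joined by locus and fitted with edgeR 4.0.16 in R 4.3.3: filter by expression over the 4 groups, TMM scaling, robust quasi-likelihood fit with 1 mean per group, and 5 contrasts (ethylene in each line, their difference, and the lines in each gas). The script was tested on simulated data. The fit had 4 residual degrees of freedom, and 2 libraries a group limit the precision. RPKM divides CPM by the exon length in the tables.

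Values by library are given for genes called in both ethylene contrasts with a 2-fold change in either, for those called between the lines or in the difference, for the receptors and for small RNA targets. The members, the gene lists and this rule were chosen with earlier results of these data known. Alternatives were DESeq2 1.42.0, its size factors, library size alone, no filter, a fit without the robust option, a replicate block, only the libraries of a contrast, and each library left out. Promoters, miRNAs and target sites were read from the RefSeq TAIR10.1 genome, in which all 49 loci have the starts and ends of the count tables.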

Additional observations from a re-analysis of the deposited data

Results flagged for a closer look

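The ethylene responses of 2 genes differed between the lines by the test of the difference itself. AFB1 differed by −0.32 on the log2 scale (e2e3 minus e1e2, 95% interval from −0.48 to −0.16), with a change of −0.29 in e1e2 and −0.61 in e2e3. ARF7 differed by −0.24 (95% interval from −0.38 to −0.10), with −0.08 in e1e2 and −0.32 in e2e3. Neither was called with DESeq2, and each lost its call in most leave-one-out fits.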

How the results depend on the processing

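No change that was called in either fit reversed its sign under any alternative. Changes called in neither fit did reverse. Over the 5 contrasts there were 15 with library size alone, 4 with DESeq2 and 3 with its size factors. Others reversed in fits that left out 1 library. With DESeq2, 20 genes were called for ethylene in e1e2 in place of 28, with 7 in place of 12 higher, 23 in place of 27 in e2e3, and 3 in place of 5 between the lines in ethylene. The 2 differences of response, both lower, became 1 with DESeq2 size factors, with library size alone, with no filter and without the robust option, where AFB1 remained, and 0 with DESeq2. Fits that left out 1 library called 23 to 28 genes in e1e2, 23 to 27 in e2e3, 5 to 7 between the lines in air, 1 to 6 between them in ethylene, all higher, and 0 to 2 differences of response, all lower. The count in ethylene was 1 without replicate 2 of e2e3 in ethylene. Library size alone moved the median change of all genes by 0.07 in e1e2 and 0.08 in e2e3. The replicate numbers do not pair the libraries, since the deviations of libraries with the same number correlated at −0.03 to 0.0009 between groups. A replicate block left the calls for ethylene at 28 in e1e2 and 27 in e2e3 and the 5 between the lines in ethylene, and gave 7 in air (ARF17 lost, edgeR adjusted p = 0.0529) and 1 difference (ARF7 lost, edgeR adjusted p = 0.0605). Depth limits IAA5, IAA30, IAA31, IAA33 and IAA34, which hold few counts, and 2 libraries a group limit all values.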

Other observations

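Of the 15 tested early auxin response genes, 5 were higher in e2e3 than in e1e2 in air, against 9% of all genes, and 5 in ethylene, against 4.24%. GH3.3, which conjugates auxin to amino acids, was higher by 0.86 ± 0.10 on the log2 scale in air (edgeR adjusted p = 2.87e-13) and 1.02 ± 0.12 in ethylene (edgeR adjusted p = 1.41e-12). GH3.6 was higher by 0.43 ± 0.06 and 0.36 ± 0.07, and the homeobox gene HAT2 by 0.34 ± 0.06 and 0.22 ± 0.07, the last not called with DESeq2 (adjusted p = 0.176). Ethylene lowered all 3 in both lines, GH3.3 by −0.97 ± 0.13 in e1e2 and −0.80 ± 0.10 in e2e3.

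HLS1, the HOOKLESS1 gene that holds the apical hook closed, rose with ethylene by 1.08 ± 0.07 in e1e2 and 1.08 ± 0.06 in e2e3, and PIF4, a growth factor of dark-grown hypocotyls, fell with log2 changes of −1.53 ± 0.08 and −1.59 ± 0.08.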
